A study of Mus musculus with 14 samples.

Results

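Tregs, regulatory CD4 T cells whose suppressive state depends on Foxp3, were examined for 7 genes of the T helper 1 (Th1) programme and of the interferon-gamma pathway. The genes were the transcription factors Tbx21, Eomes, Runx3 and Hlx, the cytokine gene Ifng and the receptor genes Ifngr1 and Ifngr2. They were taken by their NCBI Gene numbers, 7 of the 27179 genes in the deposited count table, and the rule used no measured value, although earlier results of these data were known when the genes were listed. Polyadenylated RNA was sequenced from YFP-positive Tregs that had been sorted directly from spleen and from endpoint flank tumors grown from the murine colon cancer line MC38. Every mouse carried a FoxP3Cre-YFP allele, in which Cre recombinase and the fluorescent protein are made under Foxp3 control, and every mouse bore a tumor. The WT group had the strain label B6.IL23RWT FoxP3Cre-YFP (IL23RWT/WT FoxP3Cre) and gave 4 spleen and 4 tumor (TIL) libraries. The Flox group had the strain label B6.IL23RFlox FoxP3Cre-YFP (IL23RFlox/Flox FoxP3Cre), in which Cre should delete Il23r in cells that express Foxp3, and gave 3 spleen and 3 tumor libraries. The labels name no antibody treatment, give no age and do not say whether a spleen and a tumor library came from the same mouse. The series compares Flox with WT within a tissue, and tumor was set against spleen here as a description of where the 7 genes are high.

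Tbx21 encodes T-bet, the T-box factor that directs Th1 differentiation, and Eomes encodes its close relative eomesodermin, better known from cytotoxic lymphocytes. Runx3 is a Runt-domain factor that acts with T-bet at Ifng, and Hlx is a homeobox factor that T-bet induces and that adds to Ifng output in mouse Th1 cells. Interferon-gamma binds a receptor built from Ifngr1, the ligand-binding chain, and Ifngr2, the chain needed for signalling through the kinases Jak1 and Jak2. A T-bet-positive subset of Tregs is known in mice, where it restrains Th1 responses.

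In the RefSeq annotation of GRCm38.p6, Tbx21 lies on the minus strand of chromosome 11 at 97098007 to 97115331, and Eomes on the plus strand of chromosome 9 at 118478186 to 118486132. Runx3 lies on the plus strand of chromosome 4 at 135120645 to 135177990, and Hlx on the minus strand of chromosome 1 at 184727143 to 184732493. Chromosome 10 holds Ifng at 118441046 to 118445894 and Ifngr1 at 19591949 to 19610229, and chromosome 16 holds Ifngr2 at 91547059 to 91564007, all on the plus strand. The counts are per gene and cannot be placed in an exon, intron or UTR. Eomes overlaps the long non-coding RNA gene Gm33408, and without a stated strand setting the reads of these genes cannot be told apart.

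Promoter windows from RefSeq (GRCm38.p6, 250 bases before to 50 after a transcription start, written 5′ to 3′ on the gene's strand) are shown for the 3 genes whose window held a searched motif, and for Eomes, which was lower in tumor and held none. Capitals mark the motif matches.
Runx3, chr4:135120395-135120694, plus strand: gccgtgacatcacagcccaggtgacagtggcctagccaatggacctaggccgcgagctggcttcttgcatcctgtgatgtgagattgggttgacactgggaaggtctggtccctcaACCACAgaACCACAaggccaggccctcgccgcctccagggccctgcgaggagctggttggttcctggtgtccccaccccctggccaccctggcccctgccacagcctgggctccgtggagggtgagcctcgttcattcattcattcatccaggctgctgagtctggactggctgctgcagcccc
Ifng, chr10:118440796-118441095, plus strand: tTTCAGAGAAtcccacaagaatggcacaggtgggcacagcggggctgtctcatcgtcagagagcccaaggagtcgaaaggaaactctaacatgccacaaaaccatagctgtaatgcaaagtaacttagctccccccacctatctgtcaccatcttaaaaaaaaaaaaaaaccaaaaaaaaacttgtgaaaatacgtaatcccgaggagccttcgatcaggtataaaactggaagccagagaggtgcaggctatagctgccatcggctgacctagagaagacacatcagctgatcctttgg
Ifngr2, chr16:91546809-91547108, plus strand: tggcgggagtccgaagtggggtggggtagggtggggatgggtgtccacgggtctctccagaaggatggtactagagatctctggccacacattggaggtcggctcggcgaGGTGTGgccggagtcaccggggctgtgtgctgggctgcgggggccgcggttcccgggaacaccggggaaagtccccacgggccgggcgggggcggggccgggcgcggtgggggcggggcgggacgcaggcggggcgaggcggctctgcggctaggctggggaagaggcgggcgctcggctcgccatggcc
Eomes, chr9:118477939-118478238, plus strand: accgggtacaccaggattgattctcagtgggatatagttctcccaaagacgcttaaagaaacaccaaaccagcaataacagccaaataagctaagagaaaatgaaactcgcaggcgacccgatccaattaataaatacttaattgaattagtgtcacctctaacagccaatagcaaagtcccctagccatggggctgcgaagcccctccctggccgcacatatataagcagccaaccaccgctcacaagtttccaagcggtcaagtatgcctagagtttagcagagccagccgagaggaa
All 7 genes had a window, and Runx3 had a further one at a downstream start. Both strands were searched for the T-box site AGGTGTGA, its core GGTGTG, the Runx site TGTGGT, whose reverse complement is ACCACA, and the interferon-gamma activated site TTCNNNGAA. The Runx3 window held ACCACA at 134 and at 126 bases before the start, and 2 or more such matches occurred in 1.81% of 32851 windows. The Ifng window held TTCAGAGAA at 249 bases before the start, and a TTCNNNGAA match occurred in 8.3% of windows. The Ifngr2 window held GGTGTG at 140 bases before the start, and that core, which is contained in the full T-box site, occurred in 19.0% of windows. AGGTGTGA occurred in 1.28% of windows and TGTGGT in 16.8%, and the windows of Tbx21, Eomes, Hlx and Ifngr1 held none of these letters. A match describes the letters only.

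The 14 libraries held 4859099 to 10333892 counts and 13657 to 15312 detected genes. All 12 markers of the labelled Tregs were detected in every library, with Foxp3 at 92.0 to 276 CPM (counts scaled to a common library total after TMM adjustment). Il23r, the gene that the Flox allele targets, went against the labels: 17 counts in the Flox-labelled tumor libraries and 2 in the WT-labelled ones, and 10 (9 of them in 1 library) and 2 in spleen. The deposited counts do not separate deleted from retained exons, so the groups are called WT-labelled and Flox-labelled. Sex-linked transcripts also followed the genotype labels, with Xist at 56.8 to 543 CPM in the WT-labelled and 0.527 to 3.22 in the Flox-labelled libraries, and genotype and sex cannot be told apart. The Y-linked Ddx3y reached 285 to 615 CPM under the Flox label and stayed under 1 CPM under the WT label, except in WT replicate 2, which held it at 30.02 CPM in spleen and 127 CPM in tumor beside Xist at 74.5 and 56.8 CPM. Without both WT replicate 2 libraries, edgeR called 5 of the 7 genes in tumor minus spleen and 0 in Flox minus WT in either tissue, as with them. Summed markers of other cells were 453 to 2191 CPM in spleen and 48.6 to 288 CPM in tumor for B cells, and 199 to 416 against 26.8 to 238 CPM for macrophages. Apoe alone gave 157 to 269 CPM of the macrophage sums in spleen. Of 11 tested macrophage markers 7 had higher and 4 lower values in tumor. Of these 4 and 2 passed (edgeR adjusted p under 0.05), beside 13% and 11.2% of all genes. The sums were 49.5 to 368 against 72.8 to 217 CPM for dendritic cells and 308 to 815 against 1.28 to 710 CPM for the carcinoma list, the last nearly all from Lgals4. Lgals4 stood at 303 to 785 CPM in spleen and 0.914 to 707 CPM in tumor, so this sum is no measure of carcinoma cells. The epithelial markers Krt19, Cldn3 and Cldn4 were at 0 in all 14 libraries. Genes of cell handling summed to 1043 to 1851 CPM in spleen and 1409 to 2991 CPM in tumor. The labels do not say that replicates came from separate mice, so p-values measure the spread between these libraries.

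Between tissues, tumor Tregs carried more Ifngr1, Runx3, Ifng and Hlx RNA than spleen Tregs and less Eomes RNA. The edgeR quasi-likelihood test with Benjamini-Hochberg adjustment over 12008 genes called 24.1% of all genes at an adjusted p under 0.05, and 5 of the 7 genes passed. Of these 4 were higher in tumor, beside 13% of all genes, and 1 was lower, beside 11.2%. The median log2 fold change (tumor minus spleen) was 2.45 over the 7 genes and 0.02 over all genes. Tbx21 and Ifngr2 did not pass, at 3.38 and -1.88. With the WT-labelled libraries alone 2 of the 7 passed (Ifngr1 and Eomes) beside 7.1% of all genes, and with the Flox-labelled ones alone 5 of the 7 beside 7.87%. All 13 genes of cell handling and stress had higher values in tumor, and 3 (Atf3, Hsp90aa1 and Dusp1) passed, beside 13% of all genes. Their part in the values of the 7 genes was not tested. In bulk RNA of sorted cells, more cells that carry a transcript and more of it per cell cannot be told apart.

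**Figure D1:**
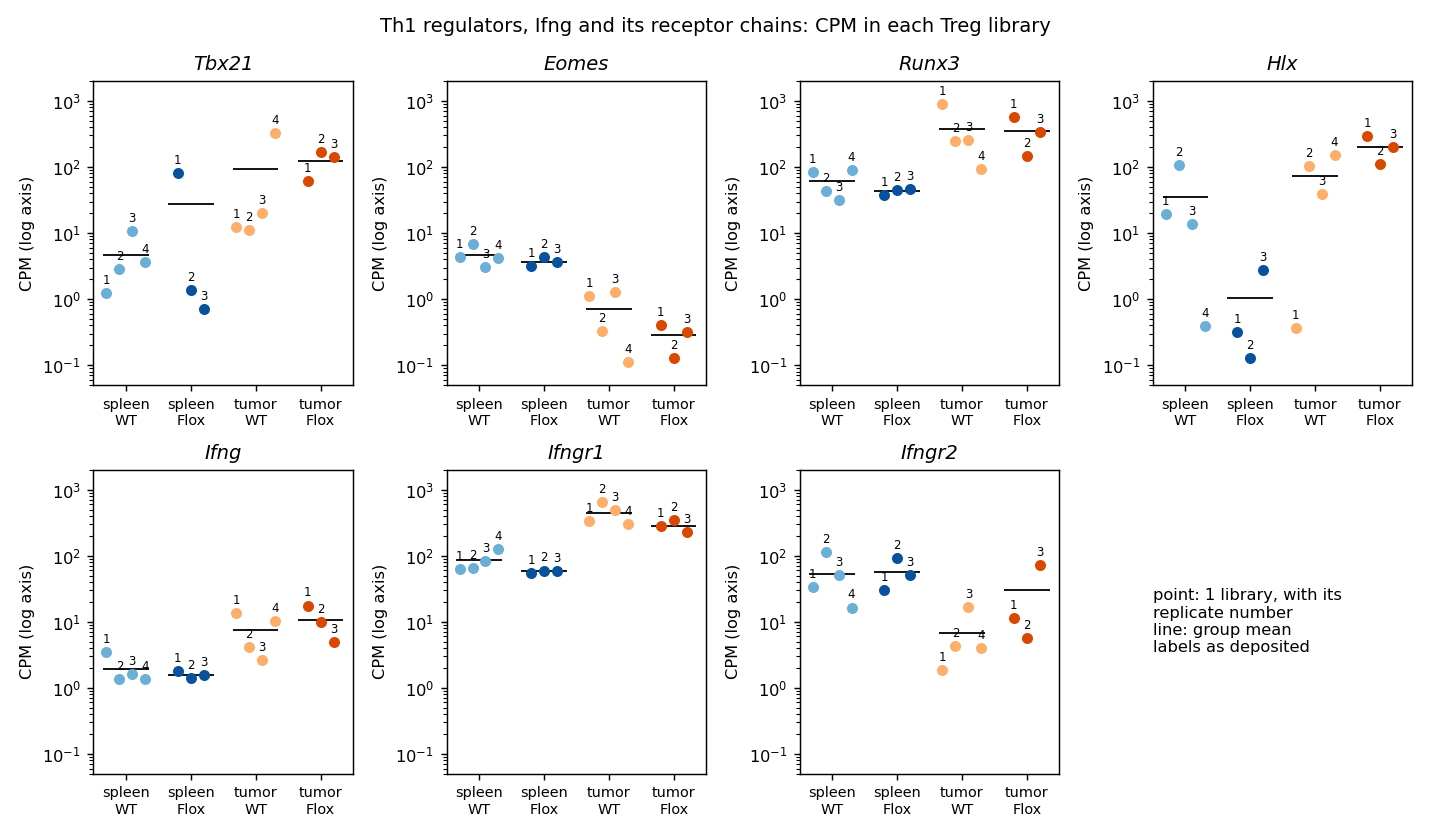
CPM (log axis) of each of the 7 genes in each library, with spleen WT, spleen Flox, tumor WT and tumor Flox from left to right; a point is 1 library with its replicate number and a line is the group mean. Runx3 and Ifngr1 stood higher in every tumor library than in any spleen library and Eomes lower, while Tbx21 (spleen Flox replicate 1 at 80.6 CPM, tumor WT replicate 4 at 325 CPM) and Hlx (tumor WT replicate 1 at 0.366 CPM) held libraries far from the rest of their group.

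Tbx21 was spread more widely than its group labels. In spleen it stood at 1.25, 2.81, 10.6 and 3.67 CPM in WT-labelled replicates 1 to 4 (12, 35, 104 and 19 counts) and at 80.6, 1.39 and 0.703 CPM in Flox-labelled replicates 1 to 3 (764, 11 and 8 counts). Thus 1 of the 3 Flox-labelled spleen libraries stood above every other spleen library, and the remaining ones lay at or below the low end of the WT-labelled range. In tumor the WT-labelled libraries stood at 12.3, 11.2, 20.0 and 325 CPM (67, 104, 139 and 2866 counts), and the Flox-labelled ones at 60.9, 170 and 142 CPM (606, 1337 and 1347 counts). The WT-labelled replicate 4 was the highest of all 14 libraries, and its other 3 were the lowest of the tumor libraries. Tumor and spleen overlapped through the single high spleen library, and the log2 fold change of 3.38 ± 1.17 (SE) did not pass (edgeR adjusted p = 0.0516). Without spleen Flox replicate 1 it was 5.69 and passed (edgeR adjusted p = 0.0085). It also passed without tumor WT replicate 1, 2 or 3 in turn (edgeR adjusted p = 0.0447, 0.0436 and 0.0484). Over all fits with 1 library left out, the log2 fold change ran from 2.01 to 5.69 and the edgeR adjusted p from 0.0085 to 0.138. Within the WT-labelled libraries it was 4.43 (edgeR adjusted p = 0.0891) and within the Flox-labelled ones 2.28 (edgeR adjusted p = 0.424), and neither passed. Among genes with a group mean of at least 5 CPM, the SD of log2(CPM + 1) of Tbx21 lay at percentile 99.4 in the Flox-labelled spleen group, 86.5 in the WT-labelled tumor group and 50.4 in the Flox-labelled tumor group.

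Natural killer (NK) cells also express Tbx21, so the 14 fixed NK markers were read beside it. Their summed level was 63.5 CPM in spleen Flox replicate 1, where Tbx21 was high, and 3.54 and 9.49 CPM in the other Flox-labelled spleen libraries. It was 13.3 to 50.1 CPM in the WT-labelled spleen libraries. In spleen Flox replicate 1 most of the sum came from Klrb1c at 35.9 CPM and Cd160 at 16.9 CPM, while the NK receptor gene Ncr1 stood at 0.527 CPM and 4 of the 14 markers were at 0. In tumor WT replicate 4, the library with the highest Tbx21, the NK sum was 8.50 CPM, within the range of 7.86 to 33.2 CPM of its group, and Ncr1 and Klrb1c were at 0. The NK sum was 11.9 to 40.6 CPM in the Flox-labelled tumor libraries. Klrb1c was at 0 in every tumor library. Of the 14 NK genes 7 were tested between tissues, and 3 had higher and 4 lower values in tumor. Of these 1 (Fcer1g) and 2 (Cd160 and Klrb1c) passed (edgeR adjusted p under 0.05), beside 13% and 11.2% of all genes. The CD8 T cell markers, whose cells carry Tbx21, Eomes and Runx3, summed to 2.31 to 14.3 CPM over all libraries, with Cd8a at 0 to 3.61 CPM and none of the 2 tested passing. Cd160 and Klrb1c were lower in tumor, as was Eomes, while Fcer1g was higher. The part of NK or CD8 T cells in the Tbx21, Eomes and Runx3 values was not tested.

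Eomes was the low T-box gene and moved against the other regulators. In spleen it stood at 4.28, 6.90, 3.07 and 4.25 CPM in the WT-labelled and at 3.16, 4.30 and 3.6 CPM in the Flox-labelled libraries, from 22 to 86 counts each. In tumor it stood at 1.10, 0.324, 1.30 and 0.113 CPM in the WT-labelled and at 0.402, 0.127 and 0.317 CPM in the Flox-labelled libraries, from 1 to 9 counts each. Every spleen library was above every tumor library. Eomes fell by 3.09 ± 0.50 (SE) on the log2 scale from spleen to tumor (edgeR adjusted p = 0.00107), with -2.66 in the WT-labelled and -3.50 in the Flox-labelled libraries. A count of 3 corresponded to 0.29 to 0.617 CPM of unadjusted totals, so 4 tumor libraries held 3 counts or fewer. Tbx21 and Eomes encode the same kind of factor, and the tumor library with the highest Tbx21 level (325 CPM) held 1 count of Eomes.

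Runx3 was higher in every tumor library than in any spleen library. It stood at 82.8, 43.4, 31.3 and 91.4 CPM in the WT-labelled and 37.1, 44.7 and 47.2 CPM in the Flox-labelled spleen libraries. In tumor it stood at 903, 245, 257 and 92.3 CPM in the WT-labelled and 571, 147 and 335 CPM in the Flox-labelled libraries. The lowest tumor library (92.3 CPM) lay just above the highest spleen library (91.4 CPM), and the tumor libraries were spread over a wider range. The log2 fold change was 2.91 ± 0.54 (SE; edgeR adjusted p = 0.00225). Within the WT-labelled libraries it was 2.69 and did not pass (edgeR adjusted p = 0.0689), and within the Flox-labelled ones it was 3.15 (edgeR adjusted p = 0.0308).

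Hlx was close to absent in some libraries and abundant in others of the same group. It stood at 19.6, 107, 13.8 and 0.386 CPM in the WT-labelled spleen libraries (188, 1338, 135 and 2 counts) and at 0.316, 0.126 and 2.72 CPM in the Flox-labelled ones (3, 1 and 31 counts). In tumor it stood at 0.366, 103, 39.2 and 151 CPM in the WT-labelled libraries (2, 953, 272 and 1330 counts) and at 297, 109 and 199 CPM in the Flox-labelled ones (2953, 863 and 1886 counts). Each WT-labelled group thus held a library with 2 counts beside libraries with 135 to 1338. In the WT-labelled tumor group 2322 genes reached 30 CPM in 3 libraries, and 13 of these, Hlx among them, were under 1 CPM in the fourth. The SD of log2(CPM + 1) of Hlx lay at percentile 97.9 among genes of the WT-labelled spleen group and 96.7 in the WT-labelled tumor group. From spleen to tumor Hlx rose by 4.40 ± 1.24 (SE) on the log2 scale (edgeR adjusted p = 0.0212). The call rested on the Flox-labelled libraries, with 7.66 (edgeR adjusted p = 0.0272) there and 1.13 (edgeR adjusted p = 0.674) in the WT-labelled ones. It was also lost without spleen Flox replicate 1 (4.16, edgeR adjusted p = 0.0626) or spleen Flox replicate 2 (4.14, edgeR adjusted p = 0.0591).

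Ifng itself was scarce in every library. In spleen it stood at 3.45, 1.36, 1.64 and 1.35 CPM in the WT-labelled and at 1.79, 1.39 and 1.58 CPM in the Flox-labelled libraries, from 7 to 33 counts each. In tumor it stood at 13.4, 4.10, 2.60 and 10.1 CPM in the WT-labelled and at 17.6, 9.76 and 4.86 CPM in the Flox-labelled libraries, from 18 to 175 counts each. The tissues overlapped only between spleen WT replicate 1 and tumor WT replicate 3. Ifng rose by 2.45 ± 0.47 (SE) on the log2 scale in tumor (edgeR adjusted p = 0.00295), with 2.86 in the Flox-labelled libraries and 2.04 in the WT-labelled ones, where it did not pass (edgeR adjusted p = 0.0808).

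The receptor chains had opposite signs between tissues, and only Ifngr1 passed. Ifngr1 stood at 63.4, 65.5, 81.9 and 128 CPM in the WT-labelled and at 55.0, 59.6 and 59.5 CPM in the Flox-labelled spleen libraries. In tumor it stood at 337, 640, 498 and 299 CPM in the WT-labelled and at 282, 344 and 229 CPM in the Flox-labelled libraries. The tissues did not overlap, and with 2.43 ± 0.28 (SE) on the log2 scale Ifngr1 had the smallest p of the 7 genes, at rank 99 of all genes tested (edgeR adjusted p = 0.000123). Of the 7 genes, 3 did not overlap between the tissues (Ifngr1, Runx3 and Eomes), beside 9.3% of all genes. Ifngr2 stood at 33.3, 113, 51.0 and 16.4 CPM in the WT-labelled and at 29.9, 91.0 and 51.5 CPM in the Flox-labelled spleen libraries. In tumor it stood at 1.83, 4.31, 16.6 and 3.97 CPM in the WT-labelled and at 11.5, 5.71 and 72.8 CPM in the Flox-labelled libraries. Of the 7 tumor libraries 5 lay below every spleen library, while tumor WT replicate 3 sat within 1 CPM of the lowest one and tumor Flox replicate 3 above most of them. The log2 fold change of -1.88 ± 0.70 (SE) did not pass (edgeR adjusted p = 0.0679), and it was -2.81 and passed without tumor Flox replicate 3 (edgeR adjusted p = 0.0165) and -2.34 without tumor WT replicate 3 (edgeR adjusted p = 0.0284). With any 1 library left out it ran from -2.81 to -1.55, with edgeR adjusted p of 0.0165 to 0.140. It was -2.94 in the WT-labelled (edgeR adjusted p = 0.0776) and -0.797 in the Flox-labelled libraries (edgeR adjusted p = 0.653). B cell markers also fell from spleen to tumor, 9 of 9 tested, with the B cell surface gene Ms4a1 at 44.4 to 686 CPM in spleen and 0 to 1.25 CPM in tumor, and their part in the receptor and Eomes values was not tested.

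Set against each other per kb of exon, the Ifngr1 level was 0.764 to 10.3 times the Ifngr2 level in spleen (median 2.12) and 4.16 to 243 times in tumor (median 79.7). This ratio was chosen after the values of its genes were seen. Its p between tissues therefore adds nothing to the tests of Ifngr1, which passed, and of Ifngr2, which did not. An exact permutation test (two-sided, on log2 ratios, 7 against 7 libraries) gave p = 0.00117, and the smallest p this design allows is 0.000583. The tissues did not overlap within the WT-labelled libraries (39.7 to 243 in tumor, 0.764 to 10.3 in spleen) or within the Flox-labelled ones (4.16 to 79.7 and 0.867 to 2.44). Between the labelled groups the ratio was not distinguished in tumor (exact permutation p = 0.114) or in spleen (exact permutation p = 0.514), where 3 against 4 libraries cannot go below 0.0286.

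**Figure D2:**
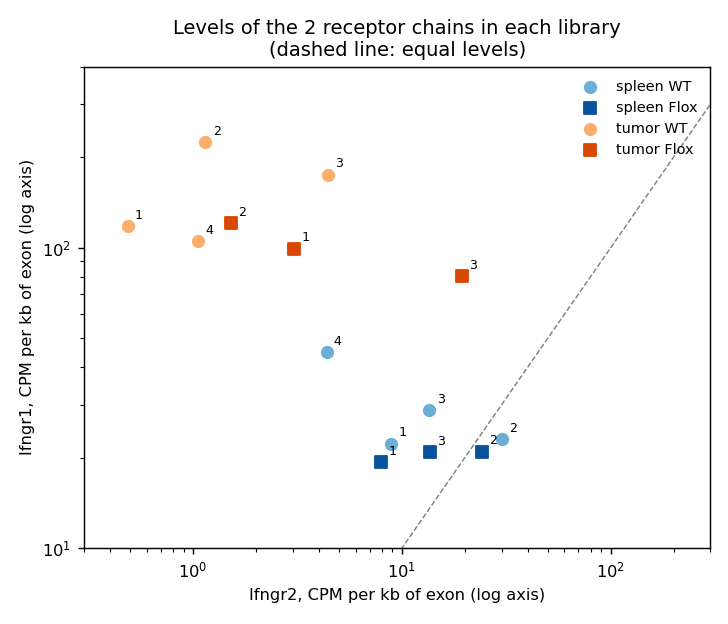
Level of Ifngr1 against Ifngr2 in each library, both in CPM per kb of exon on log axes; circles are WT-labelled, squares Flox-labelled, numbers are replicates and the dashed line marks equal levels. Tumor libraries lie above and mostly to the left of spleen libraries, with ratios of 4.16 to 243 against 0.764 to 10.3.

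As median level per kb of exon, the order in spleen was Ifngr1 (22.3 CPM per kb), Ifngr2 (13.5), Runx3 (8.94), Ifng (1.22), Hlx (1.20), Tbx21 (1.13) and Eomes (1.02). In tumor the order was Ifngr1 (118 CPM per kb), Runx3 (51.4), Hlx (48.0), Tbx21 (24.5), Ifng (7.54), Ifngr2 (1.51) and Eomes (0.0779). Ifngr1 led in both tissues and Eomes was last in both, while Ifngr2 went from next to the top to next to the bottom. By group mean CPM, Tbx21 and Hlx were highest in tumor Flox, then tumor WT, and in each case every neighbouring pair of groups overlapped. For Runx3 and Ifngr1 the order was tumor WT, tumor Flox, spleen WT and spleen Flox, with a gap between the tissues. The groups of Ifng, in the order tumor Flox, tumor WT, spleen WT and spleen Flox, overlapped with each neighbour, as did those of Ifngr2, in the order spleen Flox, spleen WT, tumor Flox and tumor WT.

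The comparison the series was built for, Flox against WT in tumor, asks what loss of the IL-23 receptor does to Tregs inside tumors. None of the 7 genes was called there. Of 10777 genes tested, 0% passed with edgeR, with 871 genes at an unadjusted p under 0.05; DESeq2 called 266 genes and limma voom 1, with none of the 7 among them, though DESeq2 gave no adjusted p for Tbx21. The tested genes were 6 of the 7, of which 4 were higher and 2 lower in the Flox-labelled libraries, with a median log2 fold change of 0.46 beside -0.06 over all genes. None of the 6 separated the groups without overlap, as 5.2% of all genes did.

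Tbx21 averaged 124 ± 56.5 CPM (SD, n = 3) over the Flox-labelled and 92.1 ± 155 CPM (SD, n = 4) over the WT-labelled libraries. Its log2 fold change was 0.41 with 95% limits of -2.64 and 3.46 (edgeR adjusted p = 0.951). That value turned on tumor WT replicate 4: without it the log2 fold change was 3.12, still short of the threshold (edgeR adjusted p = 0.617). The Flox-labelled libraries all lay above the remaining 3 WT-labelled ones and below the fourth. Hlx stood at 202 ± 93.7 CPM (SD, n = 3) and 73.3 ± 66.7 CPM (SD, n = 4), with a log2 fold change of 1.46 and limits of -1.64 and 4.56 (edgeR adjusted p = 0.762). Of its Flox-labelled libraries 2 lay above the highest WT-labelled one and 1 lay below it.

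Runx3 had close means, at 351 ± 212 CPM (SD, n = 3) and 374 ± 360 CPM (SD, n = 4), and its log2 fold change was -0.10 with limits of -2.05 and 1.86 (edgeR adjusted p = 0.985). Its sign turned with single libraries, to 0.86 without tumor WT replicate 1 and 0.27 without tumor Flox replicate 2. Ifng stood at 10.7 ± 6.42 CPM (SD, n = 3) and 7.53 ± 5.05 CPM (SD, n = 4), with a log2 fold change of 0.50 and limits of -1.11 and 2.12 (edgeR adjusted p = 0.863). Without tumor Flox replicate 1 it was -0.05. The limits of these genes are wide enough to hold changes of 2-fold in either direction.

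Of the receptor chains in tumor, Ifngr1 stood at 285 ± 57.6 CPM (SD, n = 3) under the Flox label and at 443 ± 157 CPM (SD, n = 4) under the WT label, with a log2 fold change of -0.63 and limits of -1.69 and 0.42 (edgeR adjusted p = 0.685). Ifngr2 stood at 29.98 ± 37.2 CPM (SD, n = 3) and 6.67 ± 6.70 CPM (SD, n = 4), a log2 fold change of 2.17 with limits of -0.31 and 4.66 (edgeR adjusted p = 0.584). That value came mostly from tumor Flox replicate 3, without which it was 0.38. Eomes was too low for the fit, with 8 counts over the Flox-labelled and 19 over the WT-labelled tumor libraries. It stood at 0.282 ± 0.141 CPM (SD, n = 3) and 0.708 ± 0.578 CPM (SD, n = 4; exact permutation test, two-sided, p = 0.457, smallest possible 0.0286). No difference in Eomes was detected at this depth.

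Markers of other cells stood beside these values in tumor. The macrophage markers summed to 63.1 to 238 CPM under the Flox label and 26.8 to 205 CPM under the WT label, and 7 of 10 tested had higher and 3 lower values in Flox, with 0 passing. The macrophage gene Cd68 stood at 20.6 ± 8.26 CPM (SD, n = 3) against 2.81 ± 1.35 CPM (SD, n = 4; edgeR adjusted p = 0.584). Macrophages carry Ifngr1 and Ifngr2, and their part in the receptor values was not tested.

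**Figure D3:**
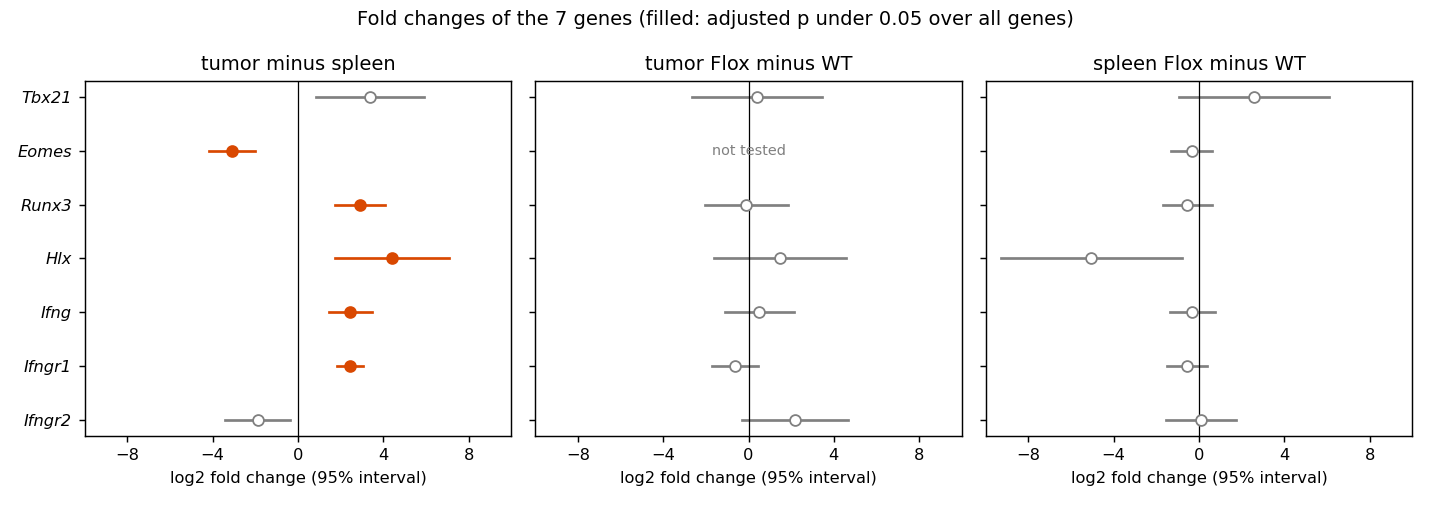
Log2 fold change of each gene with its 95% interval in tumor minus spleen, tumor Flox minus WT and spleen Flox minus WT; filled points have an edgeR adjusted p under 0.05 over all genes tested. Of the 7 genes 5 are filled between tissues and 0 between the labelled genotypes, and Eomes could not be fitted in tumor Flox minus WT.

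In spleen, Flox against WT called none of the 7 genes with edgeR. Of 10935 genes tested 0% passed, with 750 at an unadjusted p under 0.05, while DESeq2 called 124, Hlx among them, and limma voom 0. Ifngr1 was the 1 gene of the 7 whose groups did not overlap, beside 5.97% of all genes, with 58.0 ± 2.66 CPM (SD, n = 3) in Flox and 84.7 ± 29.97 CPM (SD, n = 4) in WT. Its log2 fold change was -0.56 with limits of -1.51 and 0.39 (edgeR adjusted p = 0.771). The Flox-labelled spleen libraries were close to each other in Ifngr1, with an SD of log2(CPM + 1) at percentile 1.55 of genes in that group.

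The Hlx value was the largest of the 7 in spleen, at 1.06 ± 1.45 CPM (SD, n = 3) in Flox and 35.3 ± 48.7 CPM (SD, n = 4) in WT. The log2 fold change of -5.04 ± 1.84 (SE), with limits of -9.31 and -0.78, did not pass with edgeR (adjusted p = 0.674) and passed with DESeq2 (adjusted p = 0.0429). Without spleen WT replicate 2, which held most of the counts, the log2 fold change was -3.40 (edgeR adjusted p = 0.71). The WT-labelled replicate 4, with 2 counts, lay within the Flox-labelled range.

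The other genes in spleen had smaller or less stable values. Tbx21 had a log2 fold change of 2.57 with limits of -0.93 and 6.07 (edgeR adjusted p = 0.719), which was -2.15 without Flox replicate 1. Eomes (-0.34, limits -1.31 and 0.62), Runx3 (-0.55, limits -1.71 and 0.61), Ifng (-0.31, limits -1.38 and 0.76) and Ifngr2 (0.09, limits -1.56 and 1.74) had edgeR adjusted p of 0.821 to 0.986. Ifng turned to 0.09 without WT replicate 1. Ifngr2 turned to -0.12, -0.21 and -0.42 without WT replicate 1, WT replicate 4 and Flox replicate 2.

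Whether the Flox effect differed between tumor and spleen was tested over all 14 libraries. Of 12008 genes 0% passed with edgeR, with 1296 at an unadjusted p under 0.05, and DESeq2 called 153 and limma voom 0, and none of the 7 genes was called by any of them. Hlx had the largest difference of the 7, 6.51 ± 2.34 (SE) on the log2 scale with limits of 1.46 and 11.57 (edgeR adjusted p = 0.425): its Flox-labelled libraries were low in spleen and high in tumor. Tbx21 had a difference of -2.18 with limits of -6.80 and 2.45.

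Signalling genes downstream of the receptor were partly higher in tumor. Lists of related genes had been drawn up with earlier results of these data known, and are described by counts. For these lists, genes that rose or fell are those with an edgeR adjusted p under 0.05 in tumor minus spleen. Of 12 genes of interferon-gamma signalling 4 rose and 0 fell in tumor, where 13% of all genes rose and 11.2% fell. The median log2 fold change was 0.93 over the list beside 0.02 over all genes. The kinase gene Jak2 rose by 1.85 ± 0.33 (SE; edgeR adjusted p = 0.00204), from 44.8 to 326 CPM in spleen to 240 to 978 CPM in tumor. Stat3 and Cited2, a co-regulator, rose by 1.56 and 1.29. Between the labelled genotypes in tumor 0 of the 12 passed. Jak2 had the smallest p of the 12, at 299.6 ± 64.1 CPM (SD, n = 3) in Flox and 719 ± 201 CPM (SD, n = 4) in WT. Its log2 fold change was -1.26 ± 0.41 (SE; edgeR adjusted p = 0.584). The groups of Jak2 did not overlap, which also held for 5.2% of all genes.

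Receptors and signal carriers that lead to T-bet include those for IL-12, IL-18, IL-27 and IL-2. Of 13 such genes 3 rose and 0 fell in tumor, and the list median was 0.55. A call in either direction was thus about as frequent in this list as over all genes (24.1%, with 13% higher). Il12rb2, the IL-12 receptor chain whose expression marks Th1 cells, rose by 4.06 ± 0.83 (SE; edgeR adjusted p = 0.0041), from 0 to 3.28 CPM in spleen to 3.40 to 86.1 CPM in tumor. Il18r1 rose by 2.45 and Il2rb by 0.97. In tumor Flox minus WT 0 of 13 passed, and the smallest p belonged to the signalling kinase gene Irak4 (1.66), Il12rb2 (2.49) and Il18rap (3.77), each with an edgeR adjusted p of 0.584. The Flox mean of Il12rb2, 34.8 ± 44.6 CPM (SD, n = 3), held 1 library at 86.1 CPM.

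Factors that work with or beside the 4 regulators were likewise examined between tissues. Of 14 genes 6 rose and 0 fell in tumor, beside 13% and 11.2% of all genes, with a list median of 1.29. Id2, an inhibitor of E proteins, rose by 2.98 ± 0.22 (SE; edgeR adjusted p = 8.41e-06), and Bhlhe40 by 4.02 ± 0.53 (SE; edgeR adjusted p = 0.000295). Hopx, a homeobox factor linked to T-bet in mouse Th1 cells, rose by 2.01, and Prdm1, which encodes Blimp-1, by 2.80. Twist1, which dampens Th1 cytokines in mice, passed at levels of 0 to 0.105 CPM in spleen and 0.108 to 4.04 CPM in tumor. In tumor Flox minus WT 0 of 14 passed, and the smallest p belonged to Runx1 (-1.19), Id2 (-0.44) and Cbfb (0.98), the shared partner subunit of the Runx factors.

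Effector genes that T-bet is known to regulate made up the list with the largest median of the 6, 2.91 in tumor minus spleen. Of 18 genes 17 were tested, and 13 rose and 1 fell, beside 13% and 11.2% of all genes. Gzmb, which encodes granzyme B, rose by 6.87 ± 0.51 (SE; edgeR adjusted p = 8.75e-06), from 1.05 to 7.15 CPM in spleen to 381 to 544 CPM in tumor. The chemokine genes Ccl3, Ccl4 and Ccl5 rose by 6.48, 6.68 and 2.91, Havcr2, which encodes TIM-3, by 6.71, Prf1, which encodes perforin, by 5.26 and Nkg7 by 4.44. Cxcr3, the receptor that T-bet-positive Tregs use to reach Th1 sites in mice, rose by a smaller 1.19 ± 0.27 (SE; edgeR adjusted p = 0.00805), with 6.82 to 15.0 CPM in spleen and 18.0 to 25.9 CPM in tumor. Cxcr6 rose by 2.02 and Furin by 1.06, Il12rb2 and Il18r1 are shared with the list above, and the cytokine gene Lta fell by 1.45.

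The summed level of the 18 effector genes was 73.8 to 191 CPM in spleen and 1344 to 2318 CPM in tumor. A single gene carried much of the highest sum in each tissue: Havcr2 made up 1409 of 2318 CPM in tumor WT replicate 4, and Il18r1 made up 92.4 of 191 CPM in spleen Flox replicate 1. In tumor WT replicate 1, where Tbx21 was 12.3 CPM, Prf1 stood at 464 CPM, and in the other tumor libraries it stood at 9.08 to 41.3 CPM. Gzmb, in contrast, stood within 381 to 544 CPM in all 7 tumor libraries while Tbx21 ranged from 11.2 to 325 CPM. In tumor Flox minus WT 0 of 16 tested passed, and the smallest p belonged to Il12rb2 (2.49), Lta (-1.74) and Prf1 (-2.83), with edgeR adjusted p of 0.584 to 0.593.

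Targets of interferon-gamma were mostly higher in tumor, with a list median of 1.12. Of 30 tested genes 27 had higher and 3 lower values. Of these 14 and 0 passed (edgeR adjusted p under 0.05), beside 13% and 11.2% of all genes. Cxcl10, a chemokine gene, rose by 4.19 ± 0.40 (SE; edgeR adjusted p = 3.8e-05), from 1.58 to 3.28 CPM in spleen to 22.3 to 75.1 CPM in tumor. The GTPase genes Igtp, Iigp1, Gbp6, Gbp7, Irgm1 and Irgm2 rose by 2.55, 2.28, 2.81, 1.21, 1.03 and 2.11. Of the antigen presentation genes B2m, Tap1 and Psme2 rose by 0.94, 1.17 and 1.08. Cd274, which encodes PD-L1, rose by 2.65, Irf8 by 1.90 and Cxcl9 by 4.88, with Cxcl9 at 0 to 5.80 CPM in spleen. In tumor Flox minus WT 0 of 30 passed, and Gbp4 (2.09), Iigp1 (1.76) and Psmb9 (1.18) had the smallest p, with edgeR adjusted p of 0.584 to 0.616.

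Factors of other T cell lineages gave a median of 0.39 over 10 genes, of which 4 rose and 1 fell in tumor, beside 13% and 11.2% of all genes. Maf rose by 2.82 ± 0.21 (SE; edgeR adjusted p = 9.52e-06), Rora by 3.44, Stat3 by 1.56 and Ikzf2, which encodes Helios, by 1.00. Bcl6, the factor of follicular T cells, fell by 2.95 ± 1.00 (SE; edgeR adjusted p = 0.0476), with 1.37 to 54.5 CPM in spleen and 0 to 2.74 CPM in tumor. In tumor Flox minus WT 0 of 8 tested passed, 1 was higher and 7 were lower, with Stat3 (-0.57), Stat6 (-1.43) and Ahr (-0.93) at the smallest p. In spleen Flox minus WT 0 genes of these 6 lists passed with edgeR, and list medians lay between -0.11 and 0.04 beside -0.06 over all genes.

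**Figure D4:**
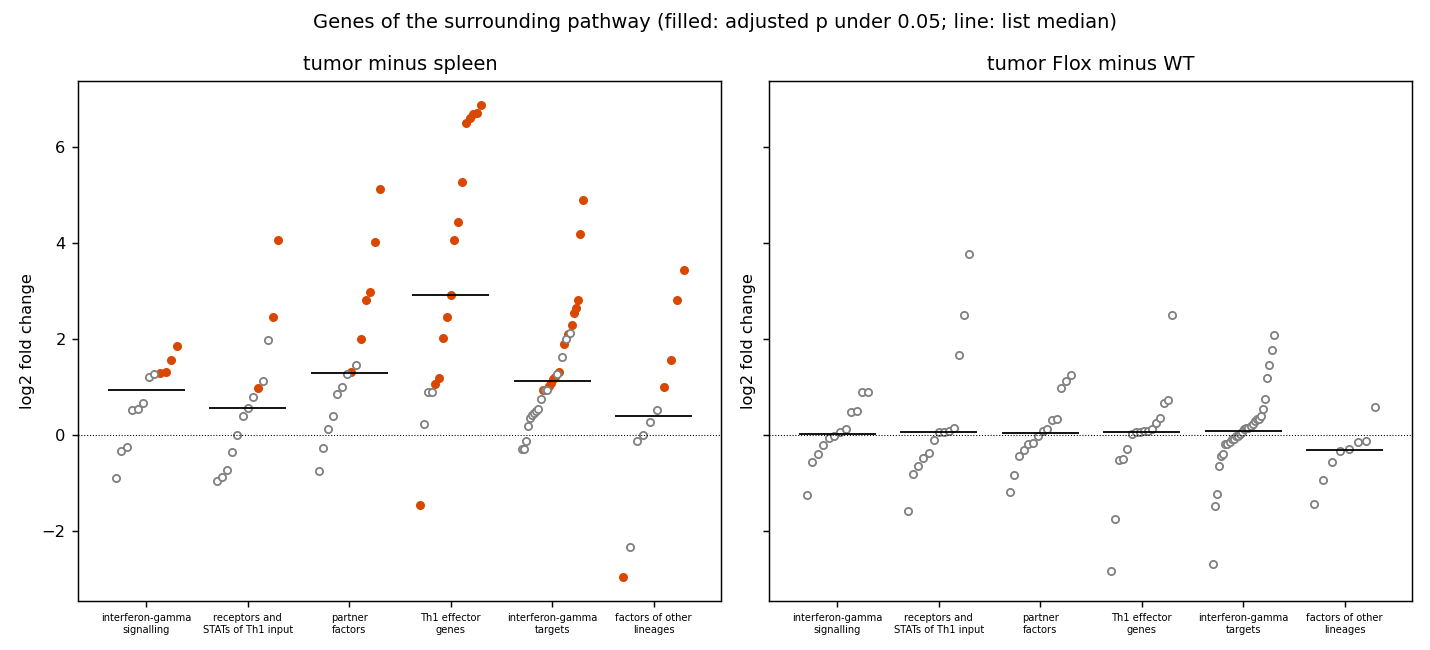
Log2 fold changes of the tested genes of 6 lists around the 7 genes, in tumor minus spleen and in tumor Flox minus WT; each point is 1 gene, filled where the edgeR adjusted p over all genes is under 0.05, and lines are list medians. The medians run from 0.39 to 2.91 between tissues and from -0.31 to 0.09 between the labelled genotypes, where no point is filled.

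The genes whose levels followed each of the 7 most closely over the 14 libraries were found among 8137 named genes by Pearson's r of log2(CPM + 1), a description over libraries that fall into 2 tissues. For Tbx21 they were Nid2 (r = 0.90), Kctd9 (0.84) and Plaat3 (0.83). Nid2 also followed it after group means were removed (r = 0.87), but stood at 65.3 to 105 CPM in tumor Flox and at 3.84 to 40.8 CPM in tumor WT libraries. For Runx3 they were Hmgb2 (0.97), Selenoh (0.92) and Alkbh5 (0.91), and for Hlx Cst7 (0.90), Cdk5 (0.88) and Tmem160 (0.88). For Ifng they were Atpif1 (0.95), Pcbp4 (0.93) and Txndc17 (0.90). For Ifngr1 they were Fosl2, Sh3pxd2b and Dusp5 (each 0.96), whose r was 0.45, 0.34 and 0.37 once group means were removed. For Ifngr2 they were Unc13d (0.95), Carmil2 (0.88) and Prkdc (0.88), with r of 0.88, 0.69 and 0.76 within groups. Eomes was too low on average for this comparison.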

How the data were processed

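The authors deposited raw read counts per gene for 27179 genes in 14 libraries. Extraction used the Qiagen RNeasy Plus micro kit and GeneWiz made ultra-low-input libraries, per the labels' protocols. The submitters' processing notes name the build mm10. Not given in the sources used here are the aligner, counter, annotation and strand setting, so reads shared by overlapping genes could not be separated. Symbols and coordinates came from RefSeq GRCm38.p6 (25275 IDs) and GENCODE M21 (18 IDs), and 1886 IDs, with 1.25 to 1.94% of counts, stayed unnamed in the tests.

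Counts were tested with edgeR 4.0.16 in R 4.3.3 (TMM, filterByExpr by group, quasi-likelihood F test, Benjamini-Hochberg over all genes tested, threshold 0.05). Only the libraries of a contrast entered its fit, and all 14 entered tumor minus spleen and the difference between tissues. The SE is the absolute log2 fold change over the square root of F, and 95% limits follow from it. CPM use TMM-adjusted totals, and levels per kb divide them by the GENCODE M21 exon length. Alternatives were DESeq2 1.42.0, limma 3.58.1 voom with quality weights, RLE factors, other filters, the replicate number as a block, other sets of libraries and each library left out. The scripts were tested on simulated data, and no library was a duplicate of another (chi-square per degree of freedom 92.1 to 391).

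The 7 genes and the 14 lists beside them and the target (178 genes, all found) were chosen with earlier results of these data known. Named were the 7 genes, every list gene that passed, or else up to 3 with the smallest p in a contrast, the most abundant cell markers, and the 3 genes most alike to each of the 7 with a mean of at least 5 CPM. Some genes that this rule names are counted in their lists and not reported here. Library values and markers singled out beside Tbx21 were chosen after they were seen. The 95% limits include the spread between libraries, and count floors cover counting error only. Plots were made in Python 3.11.15 (matplotlib 3.10.9).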

Additional observations from a re-analysis of the deposited data

Results flagged for a closer look

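In groups of 4 libraries, a value was taken as standing apart when its gap to the nearest other library exceeded Dixon's 95% critical share of the range. The values were CPM without a log, and log values were not put through this comparison. Chance alone gives about 1 in 20 groups only where values are normally distributed, which was not tested for these CPM. Among genes with a group mean of at least 5 CPM, 28.2% of 7783 were picked out in the WT-labelled tumor group and 19.5% of 8235 in the WT-labelled spleen group, so a single such value is common in these libraries. Tbx21 stood at 325 CPM in tumor WT replicate 4, with a gap of 0.972 of the range. Ifngr2 stood at 16.6 CPM in tumor WT replicate 3, with a gap of 0.832. Ifng stood at 3.45 CPM in spleen WT replicate 1, with a gap of 0.865 and 33 counts behind it. The mean of Ifng in that group was 1.95 CPM, under the 5 CPM required of the genes counted above. Hlx in the WT-labelled spleen group (107 CPM in replicate 2) came close, with a gap of 0.82. The groups of 3 Flox-labelled libraries were not put through this comparison, spleen Flox replicate 1 with its Tbx21 of 80.6 CPM included.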

How the results depend on the processing

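Of the 7 genes in tumor minus spleen, Eomes and Ifngr1 passed under every alternative that tested them (22 and 23), and Runx3 and Ifng under all but the WT-labelled libraries alone. Hlx also lost its call with the replicate block (4.65, edgeR adjusted p = 0.0768), while Tbx21 passed with DESeq2 (3.41, adjusted p = 0.0024) and voom (4.01, adjusted p = 0.0192), and Ifngr2 with DESeq2 (-1.84, adjusted p = 0.0196) and voom (-2.24, adjusted p = 0.0203). Genes passing there numbered 1823 with the replicate block (4 of the 7 genes), 750 with WT-labelled libraries only (2 of the 7) and 847 with Flox-labelled ones only, and 2434 to 2940 with 1 library left out (4 to 7 of the 7). In tumor Flox minus WT, DESeq2 called 266 genes and voom 1. In spleen, DESeq2 called 124 (1 of the 7, Hlx), the filter of 5 CPM in 3 libraries 1, leaving out both WT replicate 2 libraries 1, all 14 libraries in 1 fit 4, and leaving out 1 library 0 to 1 (1 without WT replicate 2). For the difference between tissues, DESeq2 called 153 genes and leaving out 1 library 0 to 1 (1 without tumor Flox replicate 1). The cause of these shifts was not tested.

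Signs turned only for values that did not pass. Runx3 in tumor was 0.44 with voom. Tbx21 in spleen was -0.45 and Ifngr2 in spleen -0.16 with the replicate block. The Tbx21 difference between tissues was 1.59 with voom and 2.66 with the block, and the Ifngr1 difference 0.24 without both WT replicate 2 libraries. With 1 library left out, Tbx21 ranged from -2.15 to 3.41, Ifngr2 from -0.42 to 0.74 and Ifng from -0.47 to 0.085 in spleen, and Runx3 from -0.63 to 0.86 and Ifng from -0.047 to 0.94 in tumor. The differences of Tbx21, Runx3 and Ifngr1 ranged from -2.97 to 2.55, from -0.082 to 1.44 and from -0.33 to 0.16. Libraries of the same replicate number did not deviate together over all genes (r of -0.037 to 0.045 over 13 pairs, and 2 of 14 libraries correlated best with their own number). This cannot settle whether they came from the same mouse. Among WT-labelled libraries, Ddx3y was above 1 CPM only in replicate 2, in spleen (30.02 CPM) and in tumor (127 CPM). The block changed no other call of the 7 genes.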
